A study of Mus musculus with 19 samples.

Results

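The Notch receptors (Notch1, Notch2, Notch3 and Notch4), their ligands (Jag1, Jag2, Dll1 and Dll4) and a pair of their target genes (Hes1 and Hey1) were followed across skin tumours and normal skin of the mouse. These 10 genes were chosen by name, each had 1 row among the 34807 genes of the table, and all 10 passed the low count filter with which 32031 genes were tested. The study set tumours started in different keratinocyte populations beside each other. C57BL/6J mice carried an inducible BRAFV600E allele, an activated kinase of the MAPK pathway, and a Cre recombinase fused to a mutated oestrogen receptor (CreERT2), so that Cre worked only after tamoxifen or 4-hydroxytamoxifen was applied to the shaved back. Per the labels, all animals were female and the allele was induced between 7 and 20 weeks of age. Cre was driven by the Ivl promoter (genotype Ivl:BRAFV600E, 6 tumours), which is active in committed and suprabasal keratinocytes, by the Krt5 promoter (K5:BRAFV600E, 5 tumours) or by the Krt14 promoter (K14:BRAFV600E, 4 tumours), both active in basal keratinocytes. The 4 samples of normal skin came from wild-type control littermates. The labels call every tumour a squamous cell carcinoma, and the study merged the K5 and K14 tumours into 1 group (K5/K14, 9 tumours). Ivl tumours arose late and on the back, paws, ears or lips, whereas K5 and K14 tumours arose on the back. Per the paper's methods, Ivl mice received tamoxifen and K5 and K14 mice 4-hydroxytamoxifen, unless stated otherwise there. Body site, age at sampling, the inducing drug with its dose and the driver of Cre therefore cannot be told apart. The Cre drivers say where the allele was switched on, not which cells the RNA came from, since whole pieces of tissue were sequenced. In such bulk samples, fewer cells of a type and less RNA per cell cannot be told apart.

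Notch receptors are single-pass membrane proteins that are switched on by ligands of the Jagged and Delta-like families on a neighbouring cell. Ligand binding lets a metalloprotease and then the gamma-secretase complex cut the receptor, and the freed intracellular domain enters the nucleus, where it joins the DNA-binding protein RBPJ and Mastermind coactivators and raises the transcription of HES and HEY repressor genes. In the epidermis the pathway is known for driving basal keratinocytes into differentiation, and Notch1 acts there as a tumour suppressor. In blood vessels, Notch1, Notch4 and Dll4 act in the endothelium, and Notch3 is known from pericytes and vascular smooth muscle.

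Sequencing depth was high and alike, with 45715309 to 72609771 counts per library. The number of genes at 0 counts was not alike, at 3242 to 3670 in normal skin and 5562 to 10882 in tumours. Krt5, Krt14 and the other basal keratinocyte markers summed to 10888 to 66552 counts per 1000000 (CPM) in tumours and 4101 to 9077 CPM in normal skin, so keratinocyte transcripts were abundant in every library. Skeletal muscle markers summed to 2799 to 12201 CPM in normal skin and to 4.50 to 5891 CPM in tumours. The deposited counts had been adjusted by the authors for sequencing batch. The study's supplement gives batches of 4 and 15 samples, but no source used here says which samples they held or whether the groups entered the adjustment. Ivl tumours 1, 2 and 3 and K5 tumour 1 form a set of the same size. For 96.6% of 13954 genes their mean level differed from that of the other 15 by less than 0.1 log2, and for the 10 Notch genes the largest gap was 0.0416 log2 (Hes1), although the set of 4 holds tumours alone and the other 15 hold all the normal skin. Whether the adjustment also moved differences between groups over all 19 libraries was not tested. The calls of the 10 genes are therefore given for all 19 libraries and within the 15 other libraries (3 Ivl, 8 K5/K14 and 4 normal skin). Levels, shares, the values beside endothelial markers and those of other pathway genes cover all libraries of a group unless stated. CPM values are scaled by TMM (trimmed mean of M values), with factors of 1.43 to 1.66 in normal skin and 0.806 to 1.15 in tumours. Fold changes and adjusted p-values are from edgeR's quasi-likelihood test over all genes with Benjamini-Hochberg adjustment, and a gene is said to rise, fall or change at an adjusted p under 0.05. The median log2 difference of all genes from normal skin was -0.46 in Ivl and -0.60 in K5/K14 tumours. Dividing by the library total alone moved all values against normal skin down by 0.68 (Ivl) and 0.80 (K5/K14) log2 at the median, and left 15.6% and 13.5% of the called genes higher, where TMM left 56.8% and 37.4%. Both comparisons with normal skin share the same 4 skin libraries.

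Compared per length of exon, the 10 genes spanned a range of levels that had a different order in skin and tumours. In normal skin the highest was Jag1 (24.5 ± 9.10 CPM per kb, SD, n = 4), followed by Notch2 (21.2 ± 2.34), Notch1 (18.4 ± 7.39), Jag2 (17.0 ± 3.73), Hes1 (15.3 ± 5.80) and Notch3 (14.0 ± 2.78), and neighbours in this order did not differ beyond their spread. Dll1 (4.61 ± 0.941), Hey1 (1.53 ± 0.826), Notch4 (1.13 ± 0.480) and Dll4 (0.633 ± 0.233) formed the low end. In K5/K14 tumours Hes1 was highest at 34.4 ± 5.34 CPM per kb (n = 9), and the receptors ran from Notch3 (16.8 ± 1.43) over Notch2 (10.8 ± 2.35) and Notch1 (7.71 ± 0.675) to Notch4 (3.0 ± 0.946). In Ivl tumours Hes1 was highest too at 40.2 ± 9.63 CPM per kb (n = 6), while Notch3 (15.8 ± 4.0), Notch2 (14.8 ± 4.79) and Notch1 (12.1 ± 7.66) lay within each other's spread. Ivl tumours 1 and 3, in the set of 4, held the Notch1 extremes of 26.6 and 4.63. Ivl tumours 4, 5 and 6 held 16.3, 17.1 and 11.3 for Notch3. They held 11.6, 11.9 and 10.9 for Notch2 and 10.4, 9.85 and 7.75 for Notch1. The share of each gene within its family does not depend on how libraries are scaled. Of the summed CPM per kb of the 4 receptors, Notch3 took 22.8% to 31.9% in normal skin, 31.6% to 43.1% in Ivl and 40.2% to 47.4% in K5/K14 tumours. Notch1 took 28.6% to 44.0% in skin and 17.2% to 24.0% in K5/K14 tumours, ranges that did not overlap. Its share in Ivl tumours ran from below the K5/K14 range (Ivl tumour 3) into the skin range (Ivl tumour 1). Notch4 took 0.754% to 3.66% in skin, 1.24% to 7.34% in Ivl and 4.09% to 10.2% in K5/K14 tumours. Among the ligands Jag1 and Jag2 together made up the larger part in every library, and Dll4 went from 0.595% to 1.86% of the ligand sum in skin to 2.09% to 7.33% in Ivl and 4.64% to 11.8% in K5/K14 tumours.

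**Figure D1:**
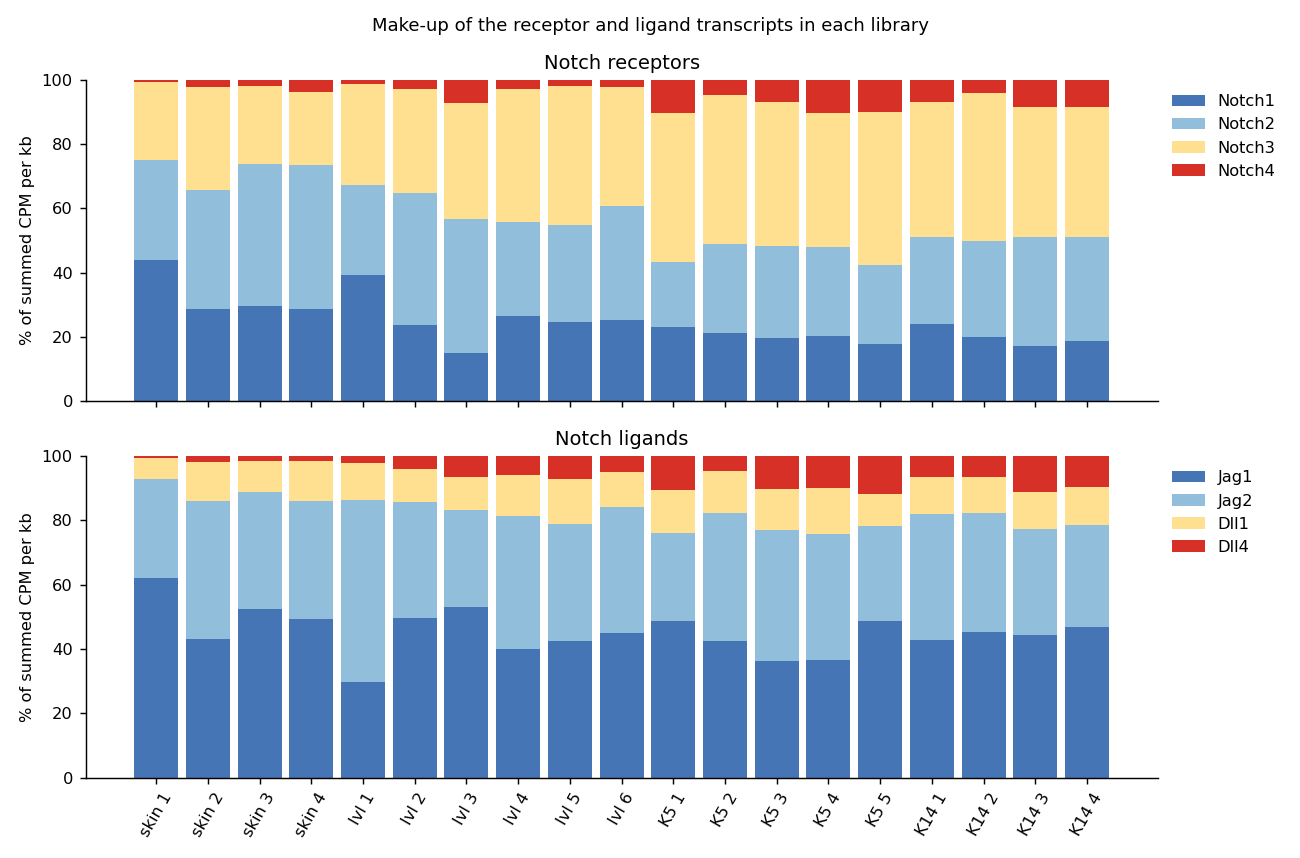
Stacked bars give, for each of the 19 libraries, the share (%) of each receptor in the summed CPM per kb of the 4 receptors (top) and of each ligand in that of the 4 ligands (bottom). The Notch3 segment was widest in K5/K14 tumours (40.2% to 47.4%), and the Dll4 segment grew from at most 1.86% in skin to at least 4.64% in K5/K14 tumours.

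Notch1 encodes the receptor best known from the epidermis and lies on chromosome 2 (GRCm38, 26457903 to 26516663, minus strand). Its level was 416, 210, 234 and 185 CPM in the 4 skin samples. It was 108, 102, 102, 106 and 106 CPM in K5 tumours and 133, 112, 105 and 113 CPM in K14 tumours. All 9 K5/K14 tumours thus lay below all skin samples and close to each other. Notch1 fell 2.38-fold in K5/K14 tumours (log2 -1.25 ± 0.29, SE, adjusted p = 0.0012), and within the 15 libraries the change was -1.25 ± 0.17 (adjusted p = 1.11e-05). In Ivl tumours the level ran from 65.9 over a median of 144 to 378 CPM, and both extremes belonged to the set of 4 libraries. Ivl tumours 1 and 2, at 378 and 186 CPM, lay inside the skin range. Over 19 libraries Notch1 was not called in Ivl tumours (-0.61 ± 0.32, adjusted p = 0.130). Within the 15 libraries the 3 Ivl tumours held 149, 140 and 110 CPM, all below skin, and the gene fell (-0.97 ± 0.22, adjusted p = 0.00177). Leaving out Ivl tumour 1 alone also brought the call (-1.01, adjusted p = 0.0032). That tumour had the lowest sum of basal keratinocyte markers of all 15 tumours (10888 CPM) and a summed neutrophil marker level of 109 CPM against 754 CPM or more in the other tumours, and the part of this in its Notch1 level was not tested. Exons of 0610009E02Rik and Gm13568 on the other strand overlap 7.50% and 2.91% of the exon length of Notch1, and whether strand was used in counting is not stated.

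Notch2, a second receptor made by keratinocytes, lies on chromosome 3 (98013527 to 98150361, plus strand). It stood at 223, 206, 264 and 220 CPM in skin, at 71.6, 101, 113, 109 and 109 CPM in K5 tumours and at 115, 125, 157 and 149 CPM in K14 tumours. Every K5/K14 tumour lay below every skin sample. The fall was 1.96-fold (log2 -0.97 ± 0.19, adjusted p = 0.000326, and -0.90 ± 0.12, adjusted p = 8.41e-06, within the 15 libraries). In Ivl tumours Notch2 ran from 118 over a median of 134 to 243 CPM and overlapped skin (-0.52 ± 0.21, adjusted p = 0.0603). Within the 15 libraries the Ivl tumours held 125, 129 and 118 CPM, none reached the skin range, and the gene fell 1.84-fold (-0.88 ± 0.15, adjusted p = 0.000208). Over 19 libraries the call turned on the method and on single libraries. Notch2 fell in 11 of 29 alternatives, among them DESeq2 (-0.64, adjusted p = 0.0213) and the library total (-1.19, adjusted p = 0.00134). It also fell without Ivl tumour 1 (-0.60, adjusted p = 0.0376), without Ivl tumour 2 (-0.67, adjusted p = 0.00939), without K5 tumour 1 (-0.52, adjusted p = 0.0421) or without K14 tumour 1 (-0.58, adjusted p = 0.0455).

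Notch3, the receptor of pericytes and smooth muscle that is also made by suprabasal keratinocytes, lies on chromosome 17 (32120820 to 32166852, minus strand). It stood at 130, 133, 108 and 84.1 CPM in skin, at 124, 127, 133, 123 and 159 CPM in K5 tumours and at 132, 146, 139 and 139 CPM in K14 tumours. The groups overlapped, and Notch3 passed the test in neither tumour group over 19 libraries (0.26 ± 0.16 and adjusted p = 0.152 for K5/K14, 0.17 ± 0.17 and adjusted p = 0.392 for Ivl) nor within the 15. With the library total alone its sign turned in both comparisons (-0.56, adjusted p = 0.00563, and -0.54, adjusted p = 0.0194). Its larger share among the receptors in K5/K14 tumours stood beside lower Notch1 and Notch2 and a level of its own that passed no test.

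Notch4, the receptor known from endothelium, lies on chromosome 17 (34564268 to 34588503, plus strand), and Dll4, the Delta-like ligand of sprouting vessels, on chromosome 2 (119325784 to 119335962, plus strand). Both differed between tumour types, so the 300 bases around the start of each gene are shown (RefSeq, GRCm38.p6, plus strand, 250 bases before the start and 50 after). The Notch4 window is chr17:34564045-34564344 and the Dll4 window chr2:119325534-119325833. Capitals mark a match to the AP-1 site TGANTCA in Notch4 and to the N-box CACNAG, the letters bound by HES repressors, in Dll4.
Notch4: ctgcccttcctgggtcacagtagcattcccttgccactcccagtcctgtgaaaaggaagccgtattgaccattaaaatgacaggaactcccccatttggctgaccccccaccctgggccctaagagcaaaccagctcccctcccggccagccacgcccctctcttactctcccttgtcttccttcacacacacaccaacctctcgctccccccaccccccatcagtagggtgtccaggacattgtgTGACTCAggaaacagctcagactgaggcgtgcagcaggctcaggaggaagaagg
Dll4: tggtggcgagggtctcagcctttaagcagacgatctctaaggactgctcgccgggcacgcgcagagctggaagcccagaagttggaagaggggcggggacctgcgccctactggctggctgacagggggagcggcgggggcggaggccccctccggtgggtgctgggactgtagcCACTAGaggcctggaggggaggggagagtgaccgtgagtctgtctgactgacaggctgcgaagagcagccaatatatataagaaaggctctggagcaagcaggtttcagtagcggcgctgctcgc
The RBPJ core TGGGAA and its longer form GTGGGAA, which contains it, were searched on both strands and are in neither window. Of the 10 genes, 8 have a promoter window in that table (9 windows, since Dll1 has a pair of them). The RBPJ core is in 0 of the 9, against 25.6% of all 32851 windows, and the longer form in 0 against 6.38%. The N-box is in 5 of the 9 (Notch1, Notch2, Notch3, Dll1 and Dll4), against 42.5% of all windows. The AP-1 pattern TGANTCA, in which N stands for any base, is in 2 of the 9, against 7.81% of all windows. It matched TGACTCA in Notch4 (bases 247 to 253 of the window) and TGATTCA in Dll1 (bases 142 to 148). These letter matches are a description of windows of this length and say nothing of binding.

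Notch4 was at 4.03, 9.81, 9.11 and 13.4 CPM in skin. It reached 27.0, 12.9, 20.7, 30.1 and 34.0 CPM in K5 tumours and 21.7, 12.9, 29.5 and 29.2 CPM in K14 tumours. A pair of K5/K14 tumours at 12.9 CPM lay just under the highest skin sample, and the other 7 lay above it. Notch4 rose 2.66-fold in K5/K14 tumours (log2 1.41 ± 0.36, adjusted p = 0.0026, and 1.39 ± 0.33, adjusted p = 0.00184, within the 15 libraries), a call that the library total alone took away (0.62, adjusted p = 0.138). In Ivl tumours it ran from 5.59 over a median of 8.03 to 18.3 CPM and spanned the skin range, with a difference from skin of 0.13 ± 0.36 (adjusted p = 0.776) over 19 and -0.35 ± 0.39 (adjusted p = 0.447) within 15 libraries.

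**Figure D2:**
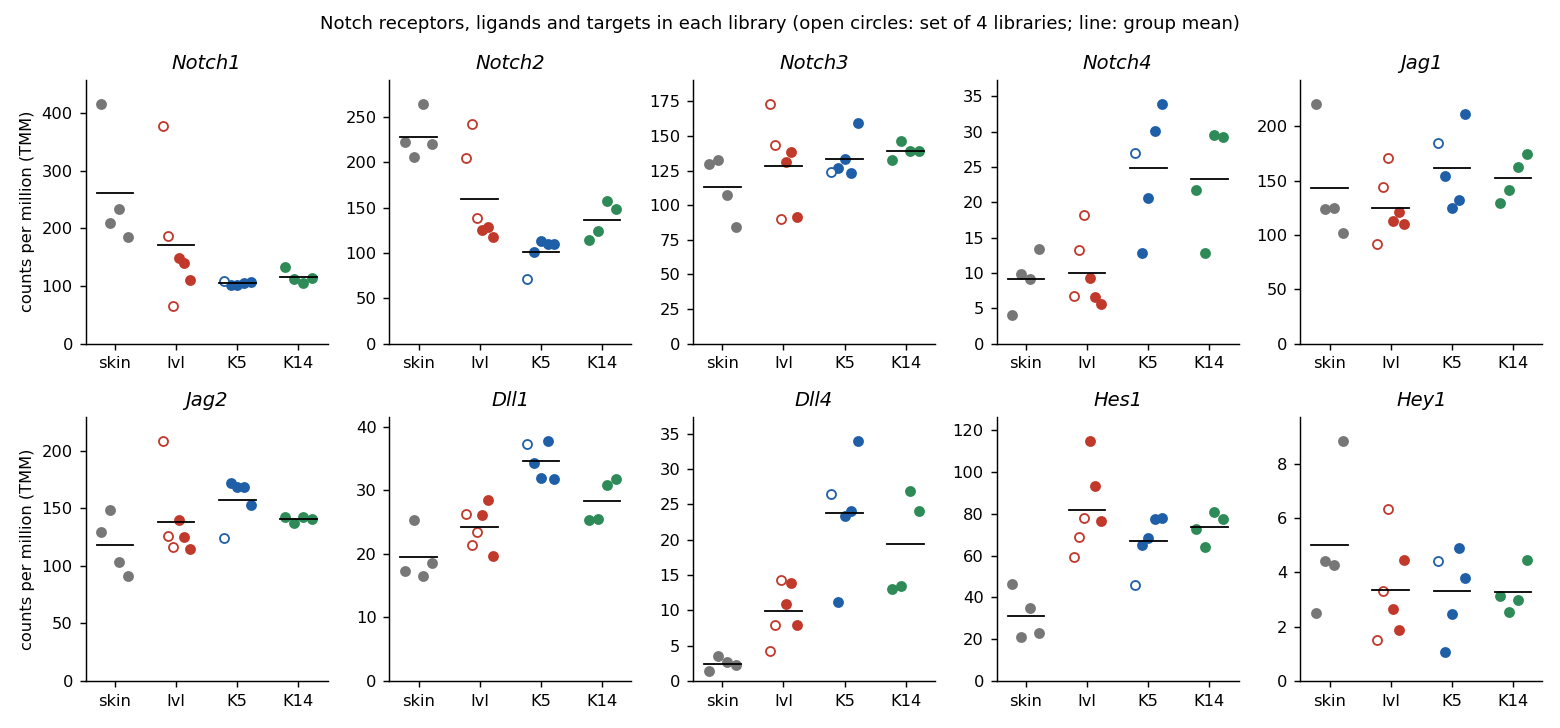
Each panel plots the TMM-scaled CPM of 1 gene (y axis, from 0) in every library of normal skin, Ivl, K5 and K14 tumours, with open circles for the set of 4 libraries and a line at the group mean. Dll4 was at most 3.55 CPM in skin and at least 11.1 CPM in K5/K14 tumours, and Notch1 and Notch2 of all K5/K14 tumours lay below all skin samples.

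Among the ligands, Dll4 differed most from skin. It was at 1.4, 3.55, 2.62 and 2.19 CPM in skin. It ran from 4.27 over a median of 9.43 to 14.2 CPM in Ivl tumours, and was at 26.5, 11.1, 23.4, 24.0 and 34.0 CPM in K5 tumours and at 13.0, 13.5, 26.9 and 24.0 CPM in K14 tumours. No tumour reached down to skin. Dll4 rose 8.93-fold in K5/K14 tumours (log2 3.16 ± 0.38, adjusted p = 3.03e-06) and 4.04-fold in Ivl tumours (2.01 ± 0.37, adjusted p = 0.000286). In the 15 other libraries the rises were 8.70-fold and 4.47-fold, and the gene was called under all 29 alternatives in both comparisons. Exons of Gm14207 on the other strand overlap 5.56% of its exon length.

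Dll1, a Delta-like ligand that basal keratinocytes make, lies on chromosome 17 (15367354 to 15376872, minus strand). Its level was 17.4, 25.3, 16.5 and 18.6 CPM in skin, 37.3, 34.3, 31.9, 37.8 and 31.7 CPM in K5 tumours, and 25.3, 25.4, 30.9 and 31.7 CPM in K14 tumours. All K5 tumours lay above skin, and the lowest K14 tumour was level with the highest skin sample. Dll1 rose 1.63-fold in K5/K14 tumours with TMM (log2 0.71 ± 0.14, adjusted p = 0.000393, and 0.68 ± 0.14, adjusted p = 0.000772, within 15 libraries), while the library total alone turned its sign (-0.11, adjusted p = 0.50). In Ivl tumours it ran from 19.6 over a median of 24.8 to 28.5 CPM and did not pass the test (0.32 ± 0.15, adjusted p = 0.0970). Without skin sample 2, the highest of the 4, it did (0.46, adjusted p = 0.0288). Exons of A930024N18Rik on the other strand overlap 20.5% of the exon length of Dll1, so part of its counts may belong to that gene if strand was not used.

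Jag1 and Jag2, the Jagged ligands, are on chromosome 2 (137081456 to 137116644, minus strand) and chromosome 12 (112907819 to 112929776, minus strand). Jag1 stood at 221, 124, 125 and 102 CPM in skin and ran from 92.0 to 171 CPM in Ivl and from 125 to 211 CPM in K5/K14 tumours, so the groups overlapped and no comparison called it over 19 or within 15 libraries. The library total alone made Jag1 lower than in skin, by -0.89 (adjusted p = 0.00659) for the Ivl group and by -0.71 (adjusted p = 0.00809) for K5/K14. Jag2 stood at 130, 149, 103 and 91.1 CPM in skin, ran from 115 to 209 CPM in Ivl tumours and from 124 to 172 CPM in K5/K14 tumours. It was not called in K5/K14 tumours over 19 libraries (0.35 ± 0.16, adjusted p = 0.0623) but rose within the 15 (1.30-fold, 0.38 ± 0.12, adjusted p = 0.0139). This small difference was called in 6 of 29 alternatives, in 1 of them with the opposite sign (library total, -0.48, adjusted p = 0.0163). Within the 15 it was lost without skin sample 3 (0.30, adjusted p = 0.0666) or 4 (0.26, adjusted p = 0.0727).

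Of the target genes, Hes1, a transcriptional repressor that Notch and other signals switch on, lies on chromosome 16 (30064384 to 30067796, plus strand). It was at 46.3, 20.8, 34.8 and 22.9 CPM in skin and ran from 59.5 over a median of 77.3 to 115 CPM in Ivl tumours, all above skin. It was at 46.1, 65.2, 68.3, 77.6 and 78.2 CPM in K5 tumours and 72.9, 63.9, 81.1 and 77.5 CPM in K14 tumours. K5 tumour 1, in the set of 4, was the 1 tumour inside the skin range. Hes1 rose 2.62-fold in Ivl tumours (log2 1.39 ± 0.22, adjusted p = 7.54e-05) and 2.25-fold in K5/K14 tumours (1.17 ± 0.21, adjusted p = 0.000138). In the 15 other libraries the rises were 3.04-fold and 2.34-fold, with no overlap with skin in either. The share of all genes without overlap with skin within the 15 was not counted. Separations from skin there, also those of Notch1 and Notch2 in Ivl tumours, thus say nothing by themselves. With the library total alone the rise of Hes1 in K5/K14 tumours was not called (0.33, adjusted p = 0.153). Hey1, a HES-related repressor that is prominent in vessels and is on chromosome 3 (8663359 to 8667256, minus strand), was low throughout, at 2.51, 4.41, 4.28 and 8.84 CPM in skin, 1.52 to 6.32 CPM in Ivl and 1.06 to 4.90 CPM in K5/K14 tumours. Ivl tumours differed from skin by -0.58 ± 0.42 (adjusted p = 0.261) and K5/K14 tumours by -0.60 ± 0.39 (adjusted p = 0.180), and both groups overlapped skin. With the library total alone Hey1 was called lower in both (-1.20, adjusted p = 0.0298, and -1.37, adjusted p = 0.00514).

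Counted together, 2 of the 10 genes rose in Ivl tumours (Dll4 and Hes1) and 0 fell over 19 libraries, where 20.4% of all genes tested were called higher and 15.5% lower. Both of these did not overlap skin, which held for 13.2% of all genes on the higher and 9.01% on the lower side. Within the 15 libraries 2 rose and 2 fell (Notch1 and Notch2), beside 22.2% higher and 32.7% lower of all genes. In K5/K14 tumours 4 rose (Notch4, Dll1, Dll4 and Hes1) and 2 fell (Notch1 and Notch2) over 19 libraries, beside 23.2% and 38.9% of all genes. Of these, Dll4 on the higher side and Notch1 and Notch2 on the lower side did not overlap skin, against 16.7% and 24.6% of all genes. In the 15 libraries 5 rose, Jag2 being added, and 2 fell, beside 23.9% and 42.3% of all genes. The median log2 difference of the 10 genes was 0.15 in Ivl and 0.30 in K5/K14 tumours, set against -0.46 and -0.60 for all genes. The medians of all genes depended on the low count filter and were -0.32 and -0.35 with edgeR's filterByExpr, which keeps fewer genes of low count. The 4 receptors had medians of -0.19 and -0.35, the 4 ligands 0.27 and 0.53. With so large a part of all genes called against skin, these counts of members say little by themselves, and the single values above carry the description.

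**Figure D3:**
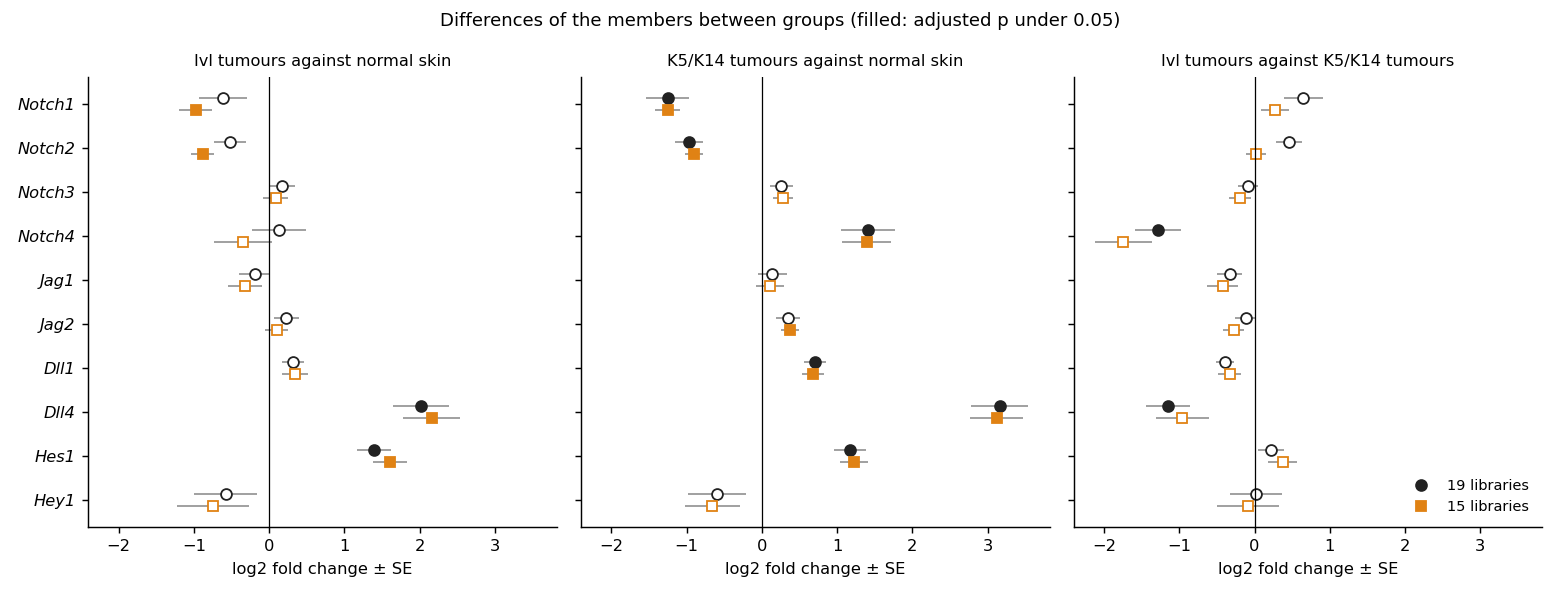
Points give the log2 fold change of each of the 10 genes with its standard error in 3 comparisons, as circles over 19 libraries and squares within the 15 other libraries, filled where the adjusted p was under 0.05. Dll4 and Hes1 lay to the right in both comparisons with skin and Notch1 and Notch2 to the left, and the filled Notch4 and Dll4 circles of the comparison between tumours (-1.28 and -1.15) have open squares (-1.74 and -0.96).

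Between the tumour types, Notch4 and Dll4 were lower in Ivl than in K5/K14 tumours. Ivl tumours ran from 5.59 over 8.03 to 18.3 CPM for Notch4 and K5/K14 tumours from 12.9 over 27.0 to 34.0 CPM, so only Ivl tumours 2 and 3, both in the set of 4, reached the K5/K14 range. The difference was 2.43-fold (log2 -1.28 ± 0.31, adjusted p = 0.0361). For Dll4 it was 2.21-fold (-1.15 ± 0.29, adjusted p = 0.0429), with 4.27 over 9.43 to 14.2 CPM against 11.1 over 24.0 to 34.0 CPM. These were 2 of the 190 genes called lower (0.593% of all tested), beside 1.77% called higher, and neither pair of groups was free of overlap, which held for 0.312% of genes on the higher and 0.343% on the lower side. Both calls stood near the threshold. Notch4 was called in 18 and Dll4 in 15 of 29 alternatives, with adjusted p-values from 0.00209 to 0.123 and from 0.00471 to 0.294. Each was lost without Ivl tumour 1 or 6, without K5 tumour 1, 3, 4 or 5, or without K14 tumour 3 or 4 (log2 -1.31 to -1.16, adjusted p up to 0.0660 for Notch4, and -1.13 to -0.99, adjusted p up to 0.0820 for Dll4). Dll4 was also lost without Ivl tumour 2 (-1.09, adjusted p = 0.0860) or skin sample 3 (-1.16, adjusted p = 0.0534).

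Within the 15 libraries 0 of the 10 genes were called between the tumour types, beside 0.213% of all genes higher and 0.197% lower. The size of the Notch4 difference was not smaller there. The 3 Ivl tumours held 9.29, 6.54 and 5.59 CPM, all below the 8 K5/K14 tumours, and the difference was 3.34-fold (-1.74 ± 0.38, adjusted p = 0.0627). Leaving out 1 more library called it in 4 of 15 cases (without K5 tumour 2, K14 tumour 2 or skin sample 1 or 4, with adjusted p-values from 0.0220 to 0.0467). The Dll4 difference was -0.96 ± 0.35 (adjusted p = 0.294), with 10.9, 13.9 and 7.99 CPM in Ivl tumours, which overlapped the K5/K14 range. The other 8 genes were not called over 19 or within 15 libraries. The nearest was Dll1 over 19 libraries (-0.39 ± 0.12, adjusted p = 0.0837), which DESeq2 called (-0.41, adjusted p = 0.0283), as did edgeR without K14 tumour 1 (-0.43, adjusted p = 0.0466). Notch1 differed by 0.64 ± 0.26 (adjusted p = 0.162) and Notch2 by 0.45 ± 0.17 (adjusted p = 0.140) over 19 libraries, and by 0.27 ± 0.19 and 0.02 ± 0.13 within the 15. Jag1, like Notch4, had no overlap within the 15, at 113, 121 and 110 CPM in Ivl tumours (-0.42 ± 0.21, adjusted p = 0.461). The lowest K5/K14 tumour there held 125 CPM. The share of all genes without overlap within the 15 was not counted, so these separations say nothing by themselves.

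Levels of endothelial markers belong beside these differences, and among K5/K14 tumours Notch4 moved with them. The 10 endothelial markers (among them Pecam1, Cdh5, Kdr and Tie1) were all detected and summed to 229 to 579 CPM in K5/K14 tumours (median 493), 117 to 464 CPM in Ivl tumours (median 210) and 84.8 to 434 CPM in skin (median 256). None of the 10 was called between the tumour types, and their median log2 difference was -0.94. Fibroblast markers (among them Col1a1 and Dcn) had a median of -1.03, and pericyte and smooth muscle markers one of -0.68. Those of hair follicle, skeletal muscle and adipocytes went the other way (1.89, 3.62 and 1.38), and none of these markers was called. Against skin 3 of the 10 endothelial markers rose (Emcn, Flt1 and Tie1) and 1 fell (Tek) in K5/K14 tumours, beside 23.2% higher and 38.9% lower of all genes. In Ivl tumours 1 rose (Emcn), beside 20.4% higher and 15.5% lower of all genes. These counts of markers say little by themselves. Across the 9 K5/K14 tumours log2 Notch4 followed the log2 endothelial sum with r = 0.97 (exact permutation p = 0.000557, adjusted over 4 relations 0.00223) and rho = 0.87 (exact permutation p = 0.00451, adjusted 0.0180), and r = 0.85 without the 2 tumours farthest from the median sum. For Dll4 the values there were r = 0.83 (exact permutation p = 0.00815, adjusted 0.0163) and rho = 0.68 (p = 0.0503, exact permutation, adjusted 0.101), and r = 0.53 without the 2 farthest tumours, so the relation of Dll4 rested on those tumours. Across the 6 Ivl tumours neither relation passed (Notch4 r = 0.73, rho = 0.49, exact permutation p = 0.0903 and 0.356, and Dll4 r = 0.55, rho = 0.49, exact permutation p = 0.271 and 0.356, the adjusted p-values being 0.120 or more). Without the 2 tumours farthest from the median sum, r there was 0.31 for Notch4 and -0.89 for Dll4. These 4 relations were not among the planned tests. Their adjustment covers them alone, although each of the 10 genes was also correlated with marker sums of other cell types, so these p-values can be too small. Over the 15 tumours Notch4 had r = 0.91 with the endothelial sum and 0.77 with the pericyte and smooth muscle sum. It had 0.68 with the fibroblast sum and -0.68 with the spinous and granular keratinocyte sum. For Dll4 these values were 0.83, 0.70, 0.51 and -0.53, and it had 0.71 with the neutrophil and 0.68 with the basal keratinocyte sum. Jag1 and Hey1 had 0.74 and 0.69 with the endothelial sum. Their values with the pericyte and smooth muscle sum were higher, at 0.76 and 0.75. In the 11 tumours outside the set of 4, the endothelial values of Jag1 and Hey1 were 0.58 and 0.59. The values over the 15 tumours were not tested. All points share the scaling of their library.

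Set against the endothelial sum of the same library, a measure chosen after the values were seen and not tested, the 2 genes differed. Notch4 came to 2.57% to 6.23% of the endothelial sum in skin, 2.26% to 5.77% in Ivl and 4.99% to 6.76% in K5/K14 tumours, ranges that overlapped throughout. Dll4 came to 0.503% to 2.26% in skin, 2.79% to 8.07% in Ivl and 3.1% to 6.77% in K5/K14 tumours. All 15 tumours thus lay above all 4 skin samples in Dll4 per endothelial marker, whereas the 2 tumour types covered each other. The part of endothelial cells in the differences of Notch4 and Dll4 between groups was not tested. Pericyte and smooth muscle markers summed to 328 to 925 CPM in K5/K14, 154 to 765 CPM in Ivl tumours and 419 to 855 CPM in skin.

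**Figure D4:**
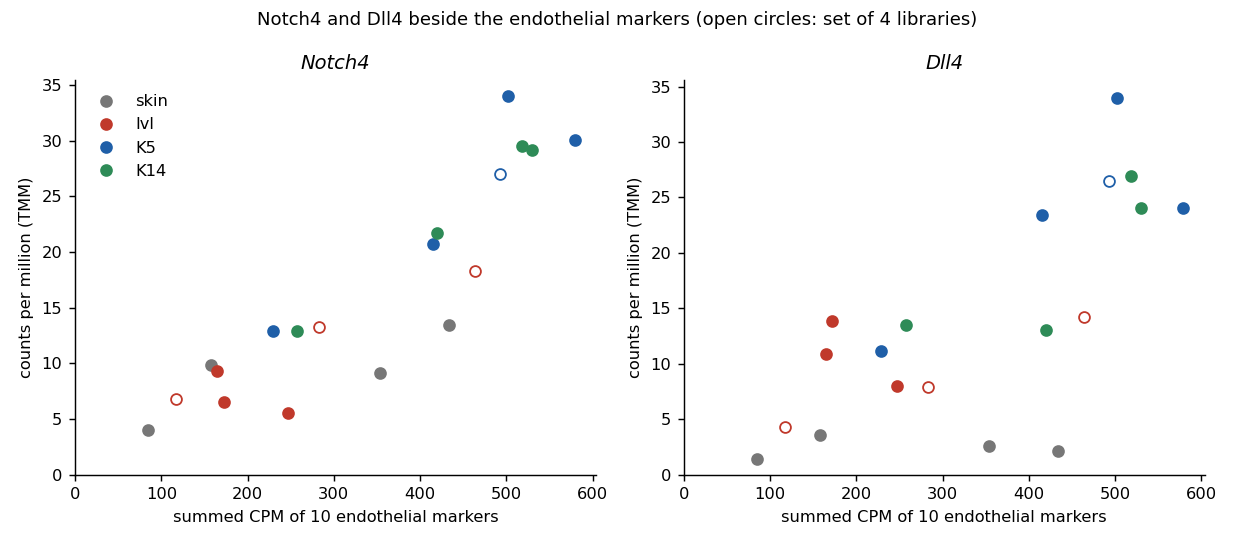
Each point is 1 library, with the summed CPM of 10 endothelial markers on the x axis and the TMM-scaled CPM of Notch4 (left) or Dll4 (right) on the y axis, open circles marking the set of 4 libraries. Notch4 of K5/K14 tumours climbed with the endothelial sum (r = 0.97, n = 9), and Dll4 of the 4 skin samples stayed at 3.55 CPM or less, also where their endothelial sum reached 434 CPM.

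K5 and K14 tumours, which were merged above, were also set against each other. Of the 10 genes 0 were called over 19 libraries, where edgeR called 0% of all genes (0 of 32031, with 1945 at an unadjusted p under 0.05, while DESeq2 called 147), and 0 within the 15, where it called 0.0532%. Notch2 (-0.43 ± 0.20, adjusted p = 0.813) and Dll1 (0.29 ± 0.14, adjusted p = 0.83) had groups that did not overlap, with Notch2 lower and Dll1 higher in all 5 K5 tumours. Neither passed the test. The share of all genes without overlap between K5 and K14 tumours was not counted, so these separations say nothing by themselves.

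Beyond the 10 genes, 43 other genes of the pathway were read as 7 lists. Over 19 libraries 12 rose and 10 fell in Ivl tumours, beside 20.4% and 15.5% of all genes (medians -0.36 for the 43 and -0.46 for all genes). In K5/K14 tumours 13 rose and 16 fell, beside 23.2% and 38.9% of all genes (-0.21 and -0.60). Within the 15 libraries 12 rose and 19 fell in Ivl tumours, beside 22.2% and 32.7% of all genes. There 13 rose and 17 fell in K5/K14 tumours, beside 23.9% and 42.3%. The counts of the lists below are over 19 libraries unless stated. They stand beside the shares given here, and none was tested as a list. Between the tumour types 0 of the 43 were called over 19 or within 15 libraries, and DESeq2 called 1, Ncstn. Receptor cleavage holds the proteases that mature and cut Notch. Of its 10 genes 7 rose and 2 fell in K5/K14 tumours, among them Psenen (1.32) and Adam17 (0.77 log2), and 6 rose and 2 fell in Ivl tumours, among them Psenen (1.01) and Adam17 (0.59). Psenen encodes a gamma-secretase subunit and Adam17 a metalloprotease. The falling pair was Aph1c (-1.60 and -0.98) and Psen2 (-0.93 and -0.88), alternative subunits of the same complex. The rises depended on scaling. In Ivl tumours 4 of the 10 were called higher with DESeq2 and 3 with its size factors in edgeR or with scaling on protein-coding genes, and with the library total alone 1 of the 10 stayed called higher in K5/K14 and 0 in Ivl tumours, and Adam17 turned to -0.03 and -0.11.

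The genes of ligand endocytosis, ubiquitin ligases that let a ligand pull on its receptor, number 4. All 4 fell in K5/K14 tumours, with Neurl1a at -2.24, Neurl1b at -1.54 and Mib1 and Mib2 both at -0.81 log2, and 3 fell in Ivl tumours, where Mib1 held -0.39 (adjusted p = 0.151). Among the 15 libraries all 4 fell in Ivl tumours too, and no scaling turned one of them. Among the glycosyltransferases that tune the receptor's choice of ligand, Rfng rose in K5/K14 (1.15) and Ivl tumours (0.95), a call lost with the library total, while Mfng fell in both (-1.06 and -1.45). Pofut1 (-0.45) and Lfng (-0.80) fell in K5/K14 tumours, and Poglut1 rose slightly in Ivl tumours (0.29, and -0.41 with the library total). Within the 15 libraries 2 of these 5 genes rose and 3 fell in Ivl tumours. Of the 7 genes of the nuclear complex 1 rose in both tumour groups, Snw1 (0.79 and 0.96), a call that the library total took away in both (-0.02 and 0.23). Exons of Slirp on the other strand cover 44.2% of the exon length of Snw1, so its counts are uncertain unless strand was used. Maml2 (-1.14 and -0.82) and Rbpj (-0.90 and -0.69), the DNA-binding partner of every Notch receptor, fell in both. Ep300 (-0.71) and Spen (-0.77) fell in K5/K14 tumours. In Ivl tumours 2 of the 7 genes fell over 19 libraries and 4 within the 15. Rbpj was at 40.3 to 74.8 CPM in skin, 25.3 to 35.3 CPM in K5/K14 and 24.2 to 71.4 CPM in Ivl tumours.

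Among 8 genes of pathway inhibition and turnover, Itch (0.93 and 0.75) and Numb (0.39 and 0.42) rose in K5/K14 and Ivl tumours, with Numb at -0.43 and -0.30 and Itch at 0.11 and 0.04 under the library total, and Dtx2 rose in K5/K14 tumours (0.29, and -0.51 under the library total). Dtx4 fell in both (-1.99 and -1.10), Dtx1 in K5/K14 (-1.68) and Dtx3 in Ivl tumours (-0.63). Of the remaining HES and HEY genes and Nrarp, a feedback inhibitor that Notch signalling switches on, Nrarp rose most, by 2.79 ± 0.33 in K5/K14 (adjusted p = 2.90e-06) and 2.36 ± 0.34 in Ivl tumours (adjusted p = 2.99e-05), from 8.41 to 17.3 CPM in skin to 66.1 to 120 CPM and 18.0 to 95.6 CPM. No tumour overlapped skin, but exons of the antisense gene Gm38287 cover 79.4% of the exon length of Nrarp, so its counts are uncertain unless strand was used. Hes5 fell in K5/K14 tumours (adjusted p = 0.0025) from 0.146 to 0.251 CPM in skin to between 0 and 0.101 CPM, levels at which the fitted fold depends on the prior count, and exons of Gm20421 on the other strand cover 31.8% of its exon length. Hes7, Hey2 and Heyl passed the test in neither group over 19 libraries. The 4 other and atypical ligands (Dll3, Dlk1, Dlk2 and Dner) did not either. Within the 15 libraries Hey2 (-1.47), Heyl (-1.78) and Dlk1 (-2.05) fell in Ivl tumours.

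**Figure D5:**
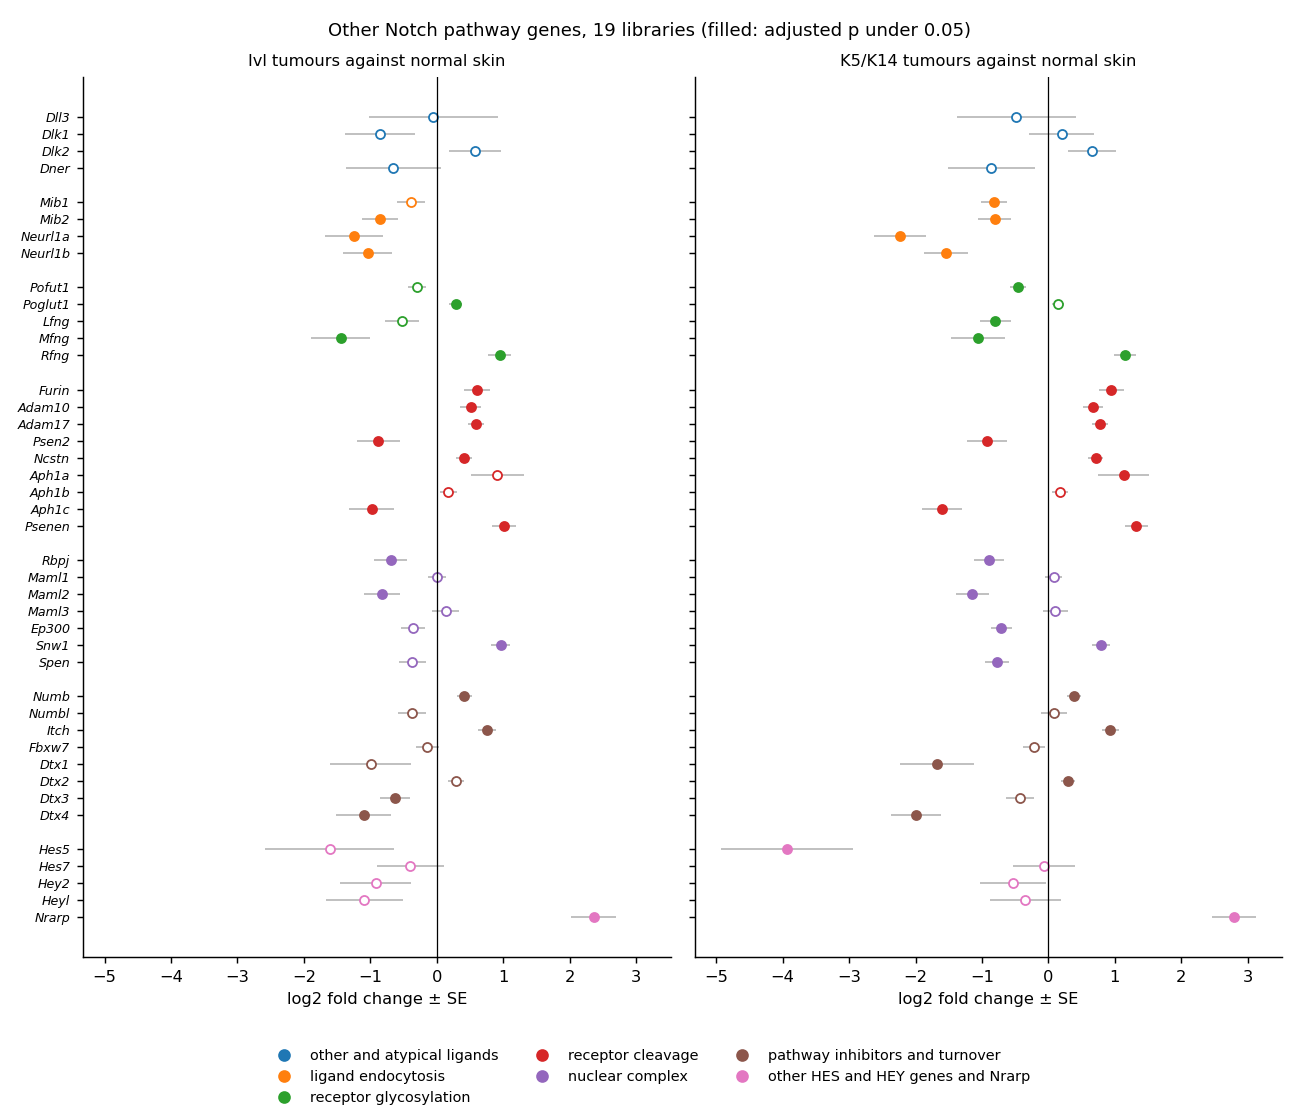
Points give the log2 fold change with its standard error of 42 of the 43 other Notch pathway genes against normal skin over 19 libraries, in Ivl (left) and K5/K14 tumours (right), coloured by list and filled where the adjusted p was under 0.05. Receptor cleavage genes lay mostly to the right and ligand endocytosis genes to the left (4 of 4 fell in K5/K14 and 3 in Ivl tumours), and Nrarp had the largest rise (2.79 and 2.36).

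Genes with the most similar profile over the 15 tumours were looked up for each of the 10, by Pearson's r of log2 CPM among 14937 genes with a mean of at least 1 CPM. These are descriptions with no test, and the points share library, scaling and tumour group. Notch4 was most like Itgb3 (r = 0.97) and Col4a2 (0.97), an integrin subunit and a collagen of basement membranes, and stayed so in the 11 tumours outside the set of 4 (0.98 and 0.97). Hey1 was most like Sox18 (0.94, and 0.93 in the 11), a transcription factor of endothelium, and St6galnac3 (0.90). Dll4 was most like 4930502E18Rik (0.95) and Col13a1 (0.94), and Dll1 like Gm49041 (0.94) and Afap1l1 (0.93). For Notch1 the nearest were Klhl11 and Atm (both 0.96) and for Notch2 Mcm9 (0.96) and Dicer1 (0.95), and all 4 values dropped in the 11 tumours, to between 0.72 and 0.82. Those of Notch3, Jag2 and Hes1 below dropped too, to between 0.75 and 0.79. Jag1 was most like Tmtc2 (0.93) and Tgfb2 (0.89), Jag2 like Ergic1 (0.89) and Eri3 (0.88), Notch3 like Bag6 and Fam20b (both 0.87), and Hes1 like Cep55 (0.87) and Dnajb11 (0.85). Among the 10 genes themselves, Notch4 and Dll4 had r = 0.84 over the 15 tumours and 0.87 over the 11.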

How the data were processed

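Poly(A) RNA of whole tissue from 19 samples was sequenced with a strand-specific kit. Per the paper's methods and the submitters' processing notes, reads were trimmed with Trim Galore, aligned with HISAT2 (2.1.0) to GRCm38 and counted per gene of Ensembl release 100 with featureCounts (Subread 1.6.3). The authors then adjusted the counts for a sequencing batch with ComBat-seq before the table was deposited, so the values were treated as estimated counts (expected counts) although all are whole numbers. Strand use in counting and the batch of each library are not given in the sources used here. Depth was 45715309 to 72609771 counts per library.

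Samples were grouped by title. A gene needed 5 counts or more in any 1 library (32031 tested, 2776 dropped). After TMM scaling, differences were tested in R 4.3.3 with edgeR 4.0.16 (robust quasi-likelihood F test, groups Ivl, K5/K14 and normal skin together, and K5 and K14 apart for their own comparison), with Benjamini-Hochberg adjustment over all genes and a threshold of 0.05. The tests had been planned for raw counts, and the batch adjustment can make p-values too small. Nothing says that all samples came from separate animals, so p-values measure the spread between these samples. Symbols, coordinates and exon lengths came from GENCODE M21 (34694 of 34807 genes matched). The 37 pairs of libraries within groups all differed by more than sampling noise. Correlations were tested by exact two-sided permutation. Alternatives covered DESeq2 (1.42.0), scaling, filters, the samples fitted, the set of 4 libraries, a replicate block and leaving out each library, and leaving out a library within the 15 was added after seeing the data. The test script was checked on simulated counts. Named genes were the 10 members, the 43 other pathway genes, the listed markers and, for likeness, the 2 genes with the highest r. Members, lists and tests were chosen with earlier results of these data known. Of the listed genes, 1 is counted with its list but not reported here by itself.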

Additional observations from a re-analysis of the deposited data

Results flagged for a closer look

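Among 40 sets of values checked for a sample far from the others (10 genes in 4 groups), of which chance picks out about 1 in 20, 2 held such a sample. Notch2 in K5 tumour 1 was at 71.6 CPM, while the other K5 tumours held 101 to 113 CPM. Jag2 in Ivl tumour 1 was at 209 CPM, while the other Ivl tumours held 115 to 139.6 CPM. Both tumours belong to the set of 4 libraries.

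The change against normal skin differed between Ivl and K5/K14 tumours for 2 genes, by edgeR's test of the difference itself. As the skin level cancels in this difference, it is the test between the tumour types given above and no separate result. For Notch4 the change in Ivl tumours minus that in K5/K14 tumours was -1.28 (adjusted p = 0.0361), and for Dll4 it was -1.15 (adjusted p = 0.0429). Neither difference was called within the 15 other libraries (adjusted p = 0.0627 and 0.294), and the part of endothelial cells in either was not tested.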

How the results depend on the processing

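The falls of Notch1 and Notch2 and the rise of Dll4 in K5/K14 tumours, and the rises of Dll4 and Hes1 in Ivl tumours, were called under all 29 alternatives. The library total alone reversed Notch3 (-0.54), Jag2 (-0.48) and Dll1 (-0.39) in Ivl tumours and Notch3 (-0.56), Jag1 (-0.71), Jag2 (-0.48) and Dll1 (-0.11) in K5/K14 tumours, as it lowered all genes against skin. With it 9 members and 18328 genes were called in Ivl tumours against skin (2 and 11515 with TMM), and 0 members between Ivl and K5/K14 tumours (2 with TMM). Within the 15 libraries the Ivl comparison with skin held 4 members and 17566 genes, that between tumour types 0 members and 131 genes (756 over 19), and K5 against K14 17 genes. With the set of 4 as a covariate the tumour types differed in 1 member and 449 genes. DESeq2 called 1881 genes and 1 other pathway gene between tumour types and 147 genes between K5 and K14. Fitting the compared groups alone left 9 other pathway genes (22 in all) for Ivl against skin and 2 genes for K5 against K14. The share of called genes that were higher in Ivl tumours than in skin was 56.8% with TMM, 45.6% with DESeq2 size factors, 40.8% with protein-coding genes, 40.4% within the 15 and 15.6% with the library total. Between tumour types it was 74.9%, against 64.0% with DESeq2, 86.9% with the library total and 51.9% within the 15. In K5/K14 tumours against skin it was 37.4%, and 13.5% with the library total. Unless stated, the cause was not tested.

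Leaving out 1 library gave 2 to 4 members and 13 to 28 other pathway genes for Ivl against skin, 0 to 3 members, 0 to 1 other pathway genes and 127 (without K5 tumour 1) to 1328 genes (without K14 tumour 1) between tumour types, and 0 to 1 members between tumour types within the 15. The replicate numbers did not pair the samples (25 pairs of same-numbered samples, r from -0.48 to 0.37). With the number as a replicate block, 10 other pathway genes and 7700 genes were called in Ivl tumours against skin, and 0 members and 46 genes between tumour types, with Notch4 at -1.17 (adjusted p = 0.123) and Dll4 at -1.21 (adjusted p = 0.0867). At this depth Hes5, listed at 0 in some tumours, allowed no firm fold.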
